A study of Homo sapiens with 3 samples.

Results

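The 4180 cells described here are all cells kept from the single-cell RNA-seq library labelled day 6, out of 8889 cells kept from the 3 libraries of the study. A barcode was kept when it held 1000 or more unique molecular identifiers (UMIs, each marking 1 captured RNA molecule) in 500 or more genes, with a mitochondrial share of UMIs no higher than 25%. That rule uses no expression value other than the mitochondrial share, and it kept 4180 of 16073 barcodes. The study followed the differentiation of H9, an established human embryonic stem cell line, toward neural progenitor cells (NPCs), and sampled single cells with inDrop, a droplet method, following the TruDrop protocol. All 3 libraries carry the same protocol labels, namely the STEMdiff SMADi Neural Induction Kit and mTeSR, the latter a maintenance medium for stem cells. The libraries differ in their labels by day (0, 2 and 6), by a letter (A, B and A) whose meaning is not given, and by cell type, which is human embryonic stem cell at day 0 and differentiated embryonic stem cell or neural progenitor cell at days 2 and 6. There was 1 library per labelled day from 1 cell line, so no difference between libraries has a replicate check, no test between libraries was made, and the intervals given below (95%, exact) cover counting error only.

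Kits of this type block SMAD signalling, the route by which BMP and TGF-beta or Nodal ligands act inside the cell. Without that signal, human pluripotent cells lose the pluripotency network around POU5F1 and NANOG and take on neural ectoderm, usually of anterior character, marked by PAX6, SIX3, LHX and SOX genes. Between these states, factors such as SOX2, LIN28A and SALL4 are shared by stem cells and early neural cells, whereas HESX1 and FEZF1 belong to the anterior neural plate. POU5F1 stood at 2.22 CPM (UMIs per 1000000 of the library) in the library labelled day 0 and at 1229 CPM in the library labelled day 2, whereas PAX6 stood at 176 CPM and 6.64 CPM. Those markers go against the day labels of these reference libraries, so each library is called here by its label and no difference is read as a change over time.

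Cells labelled day 6 held 41268018 UMIs in total and a median of 4429 UMIs and 2071 genes per cell, the 3 libraries ranging from 20626135 to 41268018 UMIs. A count of 3 UMIs corresponded to 0.0727 CPM at this depth. The mitochondrial share had a median of 8.27%, and 1648 cells (39.4%) were under 5%, with a median of 2480 UMIs against 8795 in the other cells. Of the kept barcodes, 82 were also kept in the library labelled day 0 and 72 in the library labelled day 2. When the cells of all libraries were clustered together, 102 cells labelled day 6 fell in clusters made mostly of the library labelled day 0 and 51 in clusters of the library labelled day 2, together 153 cells (3.66%). Only 2 and 1 of the shared barcodes were among them (2.44% and 1.39%, near the 2.44% and 1.22% of all cells labelled day 6). Where a named level of at least 10 CPM or a named correlation moved by over 1.5 times without these 153 cells, both values are given. No cell of this library was called a doublet by the caller used, which marked 5 cells in all and so did not work here, and no doublets were removed.

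Marker genes separated this library from both others. CUZD1, which encodes a zymogen granule membrane protein known from the pancreas and uterus (chromosome 10, 122832149 to 122850793, minus strand, GRCh38 in the GENCODE annotation, as for the positions that follow), reached 802 CPM (793 to 810), against 0.318 CPM labelled day 0 and 20.3 CPM labelled day 2. The ratios were 2524 (1330 to 5520) and 39.6 (35.9 to 43.7), and 81.1% of the cells held at least 1 CUZD1 UMI. SHISA3 (chromosome 4, 42397839 to 42402487, plus strand), an inhibitor of WNT and FGF receptors in the endoplasmic reticulum, stood at 66.3 CPM, against 3 UMIs in the whole library labelled day 0 (0.106 CPM) and 2.62 CPM labelled day 2. Its ratio to the library labelled day 0 is therefore loose, at 627 (214 to 3040). HESX1 (chromosome 3, 57197838 to 57227606, minus strand), a homeobox repressor needed for the forebrain and pituitary, stood at 99.3 CPM against 16.3 and 22.9 CPM. SOX21 (chromosome 13, 94709622 to 94712399, minus strand) stood at 127 CPM against 53.4 and 2.52 CPM, and LHX5 (chromosome 12, 113462034 to 113472280, minus strand), a LIM-homeobox factor of the anterior neural plate, at 129 CPM against 52.3 and 2.57 CPM. POU5F1 (chromosome 6, 31164337 to 31180731, minus strand), the pluripotency factor OCT4, was the only one of the 6 markers between the others, at 268 CPM, 121 times the library labelled day 0 and 0.218 times the library labelled day 2. These markers had been picked with results of these libraries known, so their levels are a description of the library and not a test of it.

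The marker genes differ in the sequence just upstream of their start sites, which is printed for those that stood highest over both other libraries. The RefSeq promoter table (GRCh38.p14) held 4 of the 6 markers, and LHX5 and POU5F1 are named only. Each line gives the 250 bases before a start site, 5′ to 3′ on the gene's strand, in lower case with matches to the motifs named below in capitals.
CUZD1, chr10:122845858-122846107, minus strand: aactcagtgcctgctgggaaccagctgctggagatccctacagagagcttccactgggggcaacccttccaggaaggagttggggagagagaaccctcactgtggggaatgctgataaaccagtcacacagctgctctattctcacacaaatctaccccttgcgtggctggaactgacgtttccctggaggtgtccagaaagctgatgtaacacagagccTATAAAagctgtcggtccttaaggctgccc
SHISA3, chr4:42397238-42397487, plus strand: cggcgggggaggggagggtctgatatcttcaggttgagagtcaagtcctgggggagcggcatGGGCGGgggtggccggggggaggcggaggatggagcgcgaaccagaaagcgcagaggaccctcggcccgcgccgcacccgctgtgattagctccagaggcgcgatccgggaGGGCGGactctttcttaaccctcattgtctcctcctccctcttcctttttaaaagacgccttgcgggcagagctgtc
HESX1, first start site, chr3:57227616-57227865, minus strand: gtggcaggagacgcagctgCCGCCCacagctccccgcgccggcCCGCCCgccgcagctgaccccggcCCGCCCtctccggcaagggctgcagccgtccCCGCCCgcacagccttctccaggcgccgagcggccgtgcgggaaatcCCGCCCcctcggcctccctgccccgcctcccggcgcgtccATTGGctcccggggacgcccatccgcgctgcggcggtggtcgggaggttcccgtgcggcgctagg
HESX1, other start site, chr3:57199979-57200228, minus strand: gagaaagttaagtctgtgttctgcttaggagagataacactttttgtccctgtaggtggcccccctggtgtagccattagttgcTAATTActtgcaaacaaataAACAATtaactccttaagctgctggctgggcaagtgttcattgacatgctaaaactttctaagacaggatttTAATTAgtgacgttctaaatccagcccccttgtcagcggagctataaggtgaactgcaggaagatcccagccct
SOX21, chr13:94712546-94712795, minus strand: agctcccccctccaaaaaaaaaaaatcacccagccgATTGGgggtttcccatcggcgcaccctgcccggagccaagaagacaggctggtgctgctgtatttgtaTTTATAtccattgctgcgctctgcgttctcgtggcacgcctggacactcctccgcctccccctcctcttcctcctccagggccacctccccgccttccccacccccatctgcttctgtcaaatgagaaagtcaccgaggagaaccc

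CUZD1 has a CpG-poor promoter with 3 CpG dinucleotides, against a median of 11 over the 35116 promoters of the table, and a TATA box (TATAAA) whose first base lies 30 bases before the start. On either strand, TATAAA occurs in 10.7% of all promoters. The SHISA3 promoter holds 20 CpG and 2 GC boxes (GGGCGG, found in 42.6% of promoters). HESX1 has 2 start sites of opposite composition. The first has 35 CpG, a GC content of 79.2%, 5 GC boxes on the other strand and a CCAAT box (in 32.0% of promoters). The other site has 2 CpG, a pair of TAATTA homeodomain cores 166 and 74 bases before the start (TAATTA occurs in 4.35% of promoters) and a SOX core on the other strand (ATTGTT, in 8.98%). In SOX21, with 11 CpG, TATAAA and CCAAT each matched once on the other strand. The octamer bound by POU factors (ATGCAAAT, in 1.63% of promoters) was searched as well and matched in none of the 5 windows. All motifs were searched on both strands and a match is only a match of letters. The CUZD1 window lies inside the GENCODE span of that gene, whose upstream end is at 122850793. The counts cannot tell which start site of CUZD1 or HESX1 was used.

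Several markers occurred in the same cells. In 1946 cells with at least 5000 UMIs, each thinned to 5000, at least 3 of the 6 markers were seen in 68.3% of cells, against 0.256% of the 1560 cells labelled day 0 and 1.80% of the 1000 cells labelled day 2. The markers were picked with these libraries known, so the contrast with the other libraries was set in advance. The share that independent occurrence of the markers would give was not computed. Thinned to 1000 UMIs, CUZD1 was seen in 50.05% of the 4180 cells, POU5F1 in 27.8%, SOX21 in 13.5%, LHX5 in 12.7%, HESX1 in 10.9% and SHISA3 in 6.53%. Free RNA in droplets sets a floor for such shares, which was not measured. The cells labelled day 6 that clustered with other libraries are given for reference. They were picked by their expression, so a low share of a marker in them is partly set by that choice. CUZD1 was seen in 3.92% of the 102 cells that clustered with the library labelled day 0 (median 7099 UMIs), against 51.7% of the 4027 cells in this library's own clusters and 0.0437% of the library labelled day 0 in its own clusters. POU5F1 was seen in 0 of those 102 cells, where 3 cells would be 2.94% and the exact upper limit for cells with a UMI is 3.55%, against 28.0% in the library's own clusters. HESX1 was seen in 3.92% of those 102 cells and in 11.1% in the library's own clusters. SOX21 and LHX5 were each seen in 10.8% of the 102 cells (5.51 to 18.5), against 13.7% and 12.8% in the library's own clusters, and in 6.60% and 4.85% of the library labelled day 0 in its own clusters. For those 2 genes the share in the library's own clusters lies within the interval of the 102 cells, so at this depth it cannot be told from that of cells that clustered elsewhere. SHISA3 was seen in 0 of the 102 cells and in 6.75% in the library's own clusters. In the 51 cells that clustered with the library labelled day 2 (median 2565 UMIs), CUZD1 was seen in 13.7% (5.70 to 26.3), HESX1 and LHX5 each in 5.88%, SOX21 and SHISA3 each in 1.96% and POU5F1 in 72.5%. The intervals of HESX1, LHX5 and SHISA3 in these few cells include their shares in the library's own clusters, whereas those of CUZD1 and SOX21 do not. Of 13 markers of tissues outside the culture, the highest was ACTA1, a skeletal muscle actin, seen in 1.65% of the 4180 cells, and the next was MBP, the myelin basic protein, in 0.191%. PTPRC, the leukocyte antigen, was seen in 0 of 4180 cells, where 3 cells would be 0.0718% and the exact upper limit for cells with a UMI is 0.0882%.

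Some transcription factors of stem cells and some of the anterior neural plate were present in the UMIs summed over this library's cells. Of 672 factors listed, 664 were found, 311 reached 10 CPM in at least 1 library and 253 did so in the library labelled day 6 (258 and 264 in those labelled day 0 and day 2). The highest were YBX1, a cold-shock-domain factor, at 1442 CPM (1715 labelled day 0, 1454 labelled day 2), and the chromatin protein HMGA1 at 1107 CPM (920.5 and 1304). SOX2, shared by pluripotent and neural cells, came next at 810 CPM (600.4 and 333), and the nuclear receptor NR6A1 stood at 808 CPM (682 and 545). These 4 ranked high in every library. FEZF1, a zinc finger repressor of the forebrain, was the sixth factor of this library at 424 CPM, whereas it ranked 29 in the library labelled day 0 (160 CPM) and 150 in the library labelled day 2 (29.4 CPM). SALL4, a stem cell zinc finger, stood at 369 CPM against 176 and 158 CPM. ZIC2, a zinc finger factor of the neural plate, stood at 321 CPM against 122 and 256 CPM. POU5F1 ranked 12 of the factors here, 376 in the library labelled day 0 and 3 in the library labelled day 2.

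**Figure D1:**
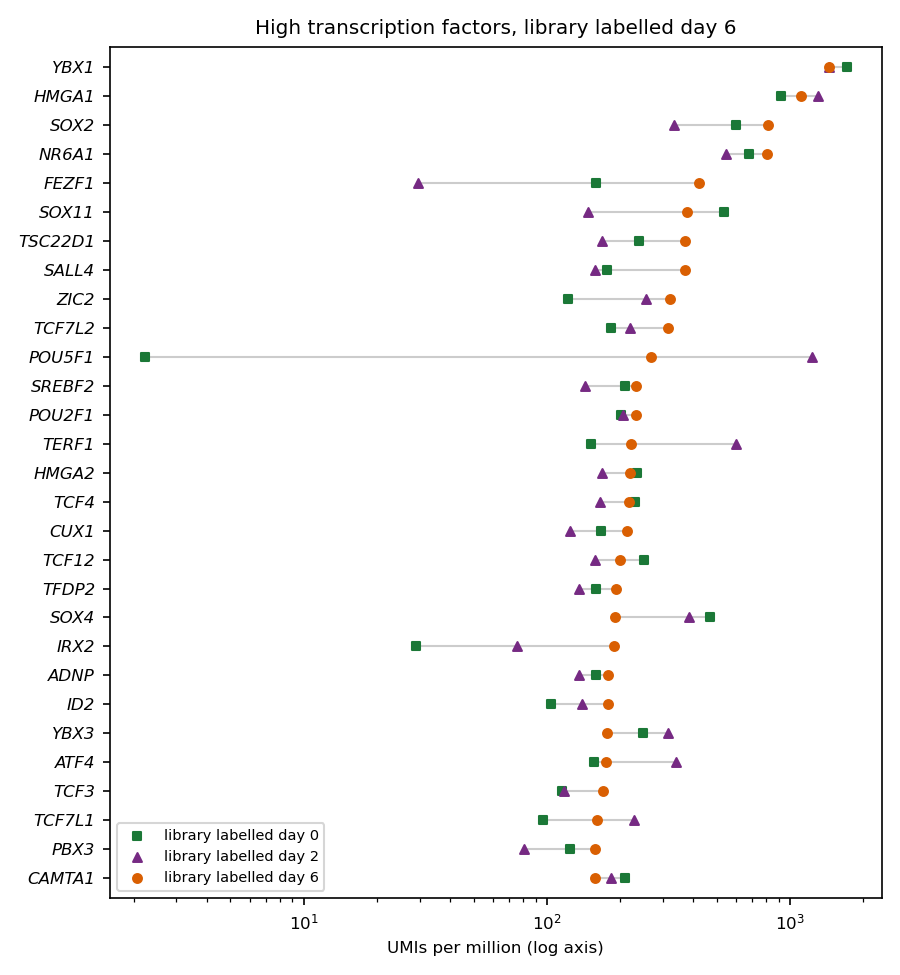
Levels of transcription factors among the 30 highest in the library labelled day 6 (y), in CPM on a log axis (x). Each point is 1 library, the grey line spans the 3 libraries and there are no error bars. FEZF1 at 424 and IRX2 at 190 lie to the right of both other libraries, SOX4 lies to the left of both, and POU5F1 at 268 lies between widely separated points.

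Of the 311 factors, 117 (37.6%) were highest in this library, 58 (18.6%) lowest and 136 (43.7%) between. Over all 10574 genes of at least 10 CPM in any library, 39.0% were highest, 22.7% lowest and 38.4% between. At least 2 times both other libraries stood 19 factors (6.11%, against 3.16% of all genes), and at most 0.5 times both stood 12 (3.86%, against 1.18% of all genes). Among the 19, IRX2, an Iroquois homeobox gene, stood at 190 CPM against 29.1 and 75.4 CPM. ZEB2, an E-box repressor of the neural ectoderm, stood at 116 CPM against 54.8 and 6.11 CPM, and FOXB1 at 104 CPM against 27.3 and 18.2 CPM. POU3F1, a POU factor that promotes neural fate, stood at 56.4 CPM against 26.4 and 13.7 CPM. Of the TALE homeobox genes, which include IRX2, 8 of 12 measured members were highest in this library and 3 were at least 2 times both others, with a summed level of 1371 CPM against 722 and 764 CPM. In contrast, no T-box or GATA factor of the 20 listed reached 10 CPM in any library, and their summed level was 8.84 CPM. NANOG, a core pluripotency factor, was below both others at 0.945 CPM against 2.19 and 66.6 CPM, so that POU5F1 and NANOG stood at very different fractions of the library labelled day 2. The other low factors included the immediate-early genes FOS at 7.20 CPM against 29.04 and 116 CPM and EGR1 at 9.43 CPM against 25.1 and 30.8 CPM. ETV5, an ETS factor downstream of FGF signalling, stood at 3.17 CPM against 10.9 and 35.3 CPM. SOX4, at 190 CPM against 468 and 383 CPM, was at the edge of the rule and left it under other scalings and a mitochondrial limit of 10%. NFATC4, LMX1A, KLF5 and GSC were lost under the 10% limit too.

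Housekeeping and cytoskeletal genes were prominent among the most abundant RNAs. Mitochondrially encoded genes held 12.1% of UMIs and cytosolic ribosomal protein genes 14.5%, led by MT-RNR2 at 18463 CPM (29227 labelled day 0, 17063 labelled day 2) and RPS2 at 5229 CPM. Because droplet libraries primed at the RNA's 3′ end count 1 tag per molecule, levels of different genes are given as UMIs and are not divided by gene length. Outside those groups, the 30 highest genes held 8.09% of UMIs. The first was LINC00486, a long non-coding RNA locus, at 12112 CPM (13877 and 16655), followed by RP5-857K21.4 at 11160 CPM. The latter is a locus whose level followed that of the mitochondrial genes from cell to cell (r from 0.73 to 0.96), as described for gene pairs below. Whether it shares reads with those genes was not tested, and it is counted here outside the mitochondrial group. STEAP1B stood at 5361 CPM and EEF1A1, the translation elongation factor, at 4852 CPM, and both also appear below as a pair that may share reads. Cytoskeletal genes were prominent, with TUBB at 3032 CPM (2178 and 2334), ACTB at 2946 CPM (2033 and 3297) and TUBA1A, a tubulin of neural cells, at 1491 CPM (1054 and 426). LIN28A, an RNA-binding protein of stem cells and early embryos that blocks let-7 maturation, stood at 1828 CPM against 1039 and 1037 CPM. DPYSL3, a regulator of the growth cone's cytoskeleton, stood at 1622 CPM against 505 and 454 CPM, which were ratios of 3.21 and 3.57. CD24, a surface glycoprotein, stood at 1633 CPM, near the 1660 CPM of the library labelled day 2 and far from the 170 CPM of the library labelled day 0. HSP90AA1, a chaperone, was lower here at 1491 CPM than in the others (3805 and 2395), as was PTMA, a nuclear acidic protein, at 1534 CPM (3270 and 2727).

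Apart from CUZD1, SHISA3 and HESX1, the genes farthest above both other libraries came from several functions. In all, 334 of 10574 genes (3.16%) were at least 2 times both others and 125 (1.18%) at most 0.5 times both. The comparisons with the other libraries share this library, so a gene high in it for any reason is high in both. PKDCC, a secreted protein kinase, stood at 339 CPM against 32.0 and 32.6 CPM. DAZL, an RNA-binding protein of germ cells, stood at 234 CPM against 2.54 and 22.6 CPM. CYP26A1, the enzyme that breaks down retinoic acid, stood at 113 CPM against 0.212 and 24.6 CPM. All 3 were low in both other libraries. DCX, a microtubule protein of migrating neurons, stood at 59.9 CPM against 9.53 and 6.74 CPM, and DAB1, an adaptor of the reelin pathway, at 518 CPM against 121 and 102 CPM. CDH9, a classical cadherin, stood at 75.9 CPM against 2.29 and 7.76 CPM, and OLFML3, a secreted olfactomedin-like protein, at 112 CPM against 7.41 and 22.7 CPM. PAPLN, RCAN2, TRPC4, MBNL3, RHBDL3, TESC and PLCL2 and 3 loci without a gene name (RP11-63A11.1, RP11-82L7.4, AC091493.2) completed the 20 genes that stood highest. RP11-63A11.1 stood at 79.4 CPM against 0.494 and 1.99 CPM, and RP11-82L7.4 at 115 CPM against 9.95 and 2.47 CPM. The 10 lowest genes included immediate-early and growth-signal genes. CTGF, a YAP and TGF-beta target, stood at 20.4 CPM against 103 and 88.8 CPM, and CYR61 at 20.9 CPM against 69.9 and 111 CPM. ID1, a direct target of BMP signalling, stood at 13.8 CPM against 87.3 and 114 CPM, and DUSP6, a phosphatase induced by ERK, at 4.56 CPM against 24.6 and 125 CPM. SLC2A3, a glucose transporter, stood at 64.8 CPM against 211 and 300 CPM. FAM84B, FOS, FAM72D, IL17RD and CH507-528H12.1 were the remaining ones, and FAM72D belongs to a family of near-identical copies whose reads may be shared.

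**Figure D2:**
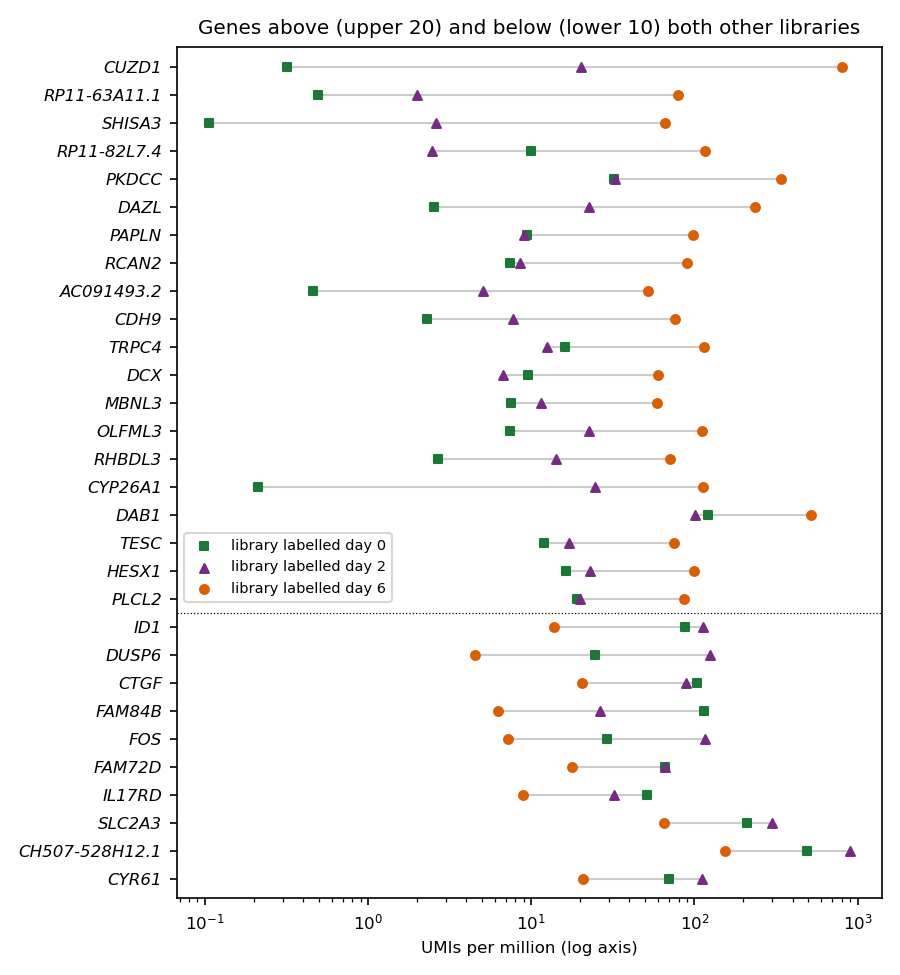
The 20 genes highest above both other libraries and the 10 lowest below both, in CPM on a log axis, with 1 point per library and no replicates. CUZD1 at 802, PKDCC at 339 and DAZL at 234 in the library labelled day 6 lie right of both other points, and DUSP6 at 4.56 and ID1 at 13.8 lie left of them.

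Signalling genes were described by lists, counting members of at least 10 CPM in any library. The shares over all 10574 genes were 10.8% at least 2 times and 6.06% at most 0.5 times the library labelled day 0, and 8.39% and 6.25% against the library labelled day 2, with a median log2 ratio of 0.12 in both. The FGF and ERK list held members beyond both other libraries in each direction. FGFR1, the main FGF receptor of neural ectoderm, stood at 1121 CPM against 322 and 436 CPM, and FGFR3 at 23.3 CPM against 8.61 and 10.8 CPM. FGFR2 stood at 158 CPM against 52.6 and 97.6 CPM. FGF2, a ligand, stood at 80.4 CPM, between the 53.8 and 130 CPM of the others. Among the negative regulators and targets, SPRY4 (3.37 CPM against 2.01 and 52.3 CPM) and ETV4 (3.20 CPM against 1.91 and 59.0 CPM) lay between the other libraries. The negative regulators DUSP6, DUSP4 and SPRY2 and the target genes ETV5 and EGR1, together with FGF13, were below both. DUSP4 stood at 19.6 CPM against 47.7 and 41.7 CPM, and SPRY2 at 5.65 CPM against 14.8 and 27.1 CPM. Of the 19 measured members, 4 were at least 2 times and 6 at most 0.5 times the library labelled day 0, and 2 and 10 were so against the library labelled day 2. Of the 27 measured BMP, TGF-beta and Nodal genes, TGFB2 was above both (14.6 CPM against 1.27 and 3.54 CPM) and the targets ID1 and BAMBI were below both. BAMBI, a decoy receptor that BMP induces, stood at 1.70 CPM against 5.12 and 20.8 CPM. TDGF1, the Nodal co-receptor, stood at 6.69 CPM against 0 UMIs labelled day 0 and 570 CPM labelled day 2.

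In the WNT list, the receptors FZD7 (387 CPM against 98.7 and 136 CPM) and FZD8 (31.5 CPM against 12.03 and 9.65 CPM) and the antagonist SHISA3 were above both. SFRP1, a secreted WNT antagonist, stood at 1292 CPM against 715 and 701 CPM, under 2 times either, whereas its relative SFRP2 was below both at 122 CPM against 271 and 343 CPM. Of 25 measured members, 11 were at least 2 times and 1 at most 0.5 times the library labelled day 2, against 3 and 6 for the library labelled day 0. In the retinoic acid list of 9 measured members, CYP26A1 was above both and CRABP1, a cytoplasmic retinoic acid binding protein, below both at 54.0 CPM against 281 and 166 CPM. CRABP2 stood at 76.7 CPM against 157 and 81.7 CPM. Among axon guidance and adhesion genes, EPHB3, SEMA6D, NRP2 and NCAM1 were above both. NRP2, a semaphorin co-receptor, stood at 156 CPM against 69.8 and 23.5 CPM, and NCAM1, the neural cell adhesion molecule, at 109 CPM against 35.8 and 9.41 CPM. EFNA5, an ephrin ligand, stood at 558 CPM, between 911 and 73.2 CPM.

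Lineage lists held measured neural and pluripotency genes, and few measured genes of mesoderm, endoderm, or amnion and trophoblast. In the core pluripotency list of 22 measured members, 15 stood at 2 times or more over the library labelled day 0, whereas 10 stood at 0.5 times or less of the library labelled day 2, with median log2 ratios of 2.29 and -0.58. TERF1, a telomere protein high in stem cells, stood at 222 CPM against 152 and 603 CPM. Forebrain and eye field genes ran the other way. Of 11 measured, 7 were at most 0.5 times the library labelled day 0 and 7 were at least 2 times the library labelled day 2, with medians of -2.31 and 1.78. PAX6 stood at 27.9 CPM against 176 and 6.64 CPM, SIX3 at 26.2 CPM against 82.2 and 4.12 CPM, and OTX2, a factor of both epiblast and forebrain, at 105 CPM against 86.1 and 30.6 CPM. Within this list FEZF1, HESX1 and LHX5 were at least 2 times both others. Of 25 measured neural progenitor genes, 7 were at least 2 times and 10 at most 0.5 times the library labelled day 0 (median log2 ratio -0.43), and 17 and 1 were so against the library labelled day 2 (median 1.30). MSI1, SOX21, POU3F1, NCAM1 and ZEB2 were above both and PROM1 below both. Of 27 neuronal genes, 9 reached 10 CPM in any library, as did 10574 of 31113 over all genes. Of these 9 neuronal genes, 4 were at least 2 times and 1 at most 0.5 times the library labelled day 0 (median log2 ratio 0.88). Against the library labelled day 2, 5 and 1 were so (median 1.05). DCX, STMN2 (41.9 CPM against 3.28 and 7.85 CPM) and INA (2.01 and 2.27 times the others) were above both. None was below both and 5 lay between. DLL1 stood at 10.3 CPM against 43.0 and 8.39 CPM, and at 5.997 CPM without the 153 cells that clustered with other libraries. Mesoderm, endoderm, and amnion and trophoblast lists had 2, 2 and 1 measured members, and the single one of the last, IGFBP3, stood at 23.7 CPM against 3.14 and 3.01 CPM. Those lists are too sparsely measured to describe a lineage beyond these levels.

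Metabolic, stress and cell-cycle lists are given with both other libraries side by side. Of 22 measured cholesterol synthesis genes, 9 were at least 2 times and none at most 0.5 times the library labelled day 2 (median log2 ratio 0.83), against 2 and 0 for the library labelled day 0 (0.21). LSS, the enzyme that closes the sterol rings, was above both at 95.7 CPM against 40.4 and 39.8 CPM. Of 18 glycolysis genes, 5 were at most 0.5 times the library labelled day 2 (median -0.73), among them LDHA at 164 CPM against 738 CPM, with 203 CPM labelled day 0. The glucose transporters SLC2A1 and SLC2A3 were below both. Of 18 ATF4 stress genes, 10 were at most 0.5 times the library labelled day 2 (median -1.20) and 1 was so against the library labelled day 0. Of 14 immediate-early genes, 6 and 11 were at most 0.5 times the libraries labelled day 0 and day 2, and FOS, FOSB, EGR1, CYR61 and CTGF were below both. These genes respond to handling and dissociation as well as to growth signals, and the part of handling in these differences was not tested. Of 55 G2 and M phase genes, none was at least 2 times either library and 11 and 3 were at most 0.5 times, with medians of -0.51 and -0.31. For S phase, CDC6, which licenses replication origins, was above both at 114 CPM against 38.6 and 51.9 CPM, and the medians of 40 genes were -0.02 and 0.29.

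Other lists held single genes that stood apart. Among long RNAs kept in the nucleus, MIAT stood at 407 CPM against 160 and 80.5 CPM, whereas MALAT1 stood at 639 CPM against 4117 and 799 CPM. In the Notch list of 13 measured members none was beyond both others, and DLK1, its highest member, stood at 315 CPM against 3137 and 79.5 CPM, and at 185 CPM without the 153 cells that clustered with other libraries. HES1, a target of Notch, stood at 61.4 CPM against 54.1 and 96.4 CPM. Of 29 measured extracellular matrix genes, COL1A2 and COL5A1 were above both, COL1A2 at 159 CPM against 48.7 and 25.8 CPM. SPARC, a matrix glycoprotein, stood at 295 CPM against 218 and 125 CPM, and COL2A1, a fibrillar collagen also made by early neural tissue, at 62.1 CPM against 259 and 9.84 CPM. EPCAM, an epithelial adhesion protein, lay between the others at 44.1 CPM against 12.8 and 212 CPM, as did CDH1, the epithelial cadherin, at 39.7 CPM against 1.13 and 94.2 CPM. CLDN6 was instead highest here, at 768 CPM against 31.7 and 435 CPM. CDH2, the neural cadherin, stood at 209 CPM against 446 and 47.9 CPM. The order of the other libraries was opposite, CDH1 and EPCAM being higher in the library labelled day 2 and CDH2 in the library labelled day 0. Of the placode and surface ectoderm list, KRT18 was lower here (53.6 CPM) than in both others (96.6 and 230 CPM). Of 22 measured heat shock genes none was at least 2 times either library, and 2 and 1 were at most 0.5 times the libraries labelled day 0 and day 2.

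Genes that separate the other libraries were used as reference sets, to see whether single cells labelled day 6 held both kinds. The sets took genes of at least 10 times higher level in one reference library than in the other, 36 for the library labelled day 0 and 59 for the library labelled day 2. No value of the library labelled day 6 entered that choice. In this library, 31 of the 36 and 51 of the 59 lay between the 2 reference levels. Over all 10574 genes of at least 10 CPM in any library, 38.4% lay between. The set genes are at least 10 times apart in the reference libraries, and so wide a gap by itself favours a level between. The median gene of the first set stood at 16.4% of its level in the library labelled day 0, and the median gene of the second at 20.7% of its level in the library labelled day 2. Members were uneven. In the second set CLDN6, a tight junction protein of early epithelium, stood at 177% of its reference level and POU5F1 at 21.8%, whereas TDGF1 stood at 1.17% and NANOG at 1.42%. In the first set LHX5 stood at 246%, EPHA4, an ephrin receptor, at 103%, SIX3 at 31.9%, PAX6 at 15.9% and BMP4, a BMP ligand, at 2.27%.

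Thinned to 5000 UMIs, 89.3% of 1946 cells (87.9 to 90.7) exceeded the limits of both sets, each limit being the 95th percentile of the set in the library it is low in. The same limits were passed by 2.37% of cells labelled day 0 and 4.50% labelled day 2. The median cell held 14 UMIs of the first set and 17 of the second, where cells labelled day 0 held 52 of the first and cells labelled day 2 held 54 of the second. The sums of a typical cell were thus between those of the other libraries for both sets. At 1000 UMIs, where all 4180 cells count, 30.5% (29.1 to 31.9) exceeded both limits, 9.69% only the first, 50.7% only the second and 9.09% neither. The share depends strongly on depth and on the limit, and it was 0.909% at the 99th percentile with 1000 UMIs (0.393% and 0.372% in the libraries labelled day 0 and day 2). The cells that clustered elsewhere are given for reference, and since they were picked by their expression they do not measure free RNA. At 1000 UMIs, the 102 cells that clustered with the library labelled day 0 held a mean of 12.1 UMIs of the first set and 0.510 of the second, against 2.36 and 3.59 in the library's own clusters. Cells of the library labelled day 0 in its own clusters held 0.264 of the second set. The 51 cells that clustered with the library labelled day 2 held 0.588 and 7.06. Across the 1946 cells the sums of both sets ran against each other (r = -0.41, and -0.25 over 1879 cells without those of other clusters), and all genes in a thinned cell share a fixed total.

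**Figure D3:**
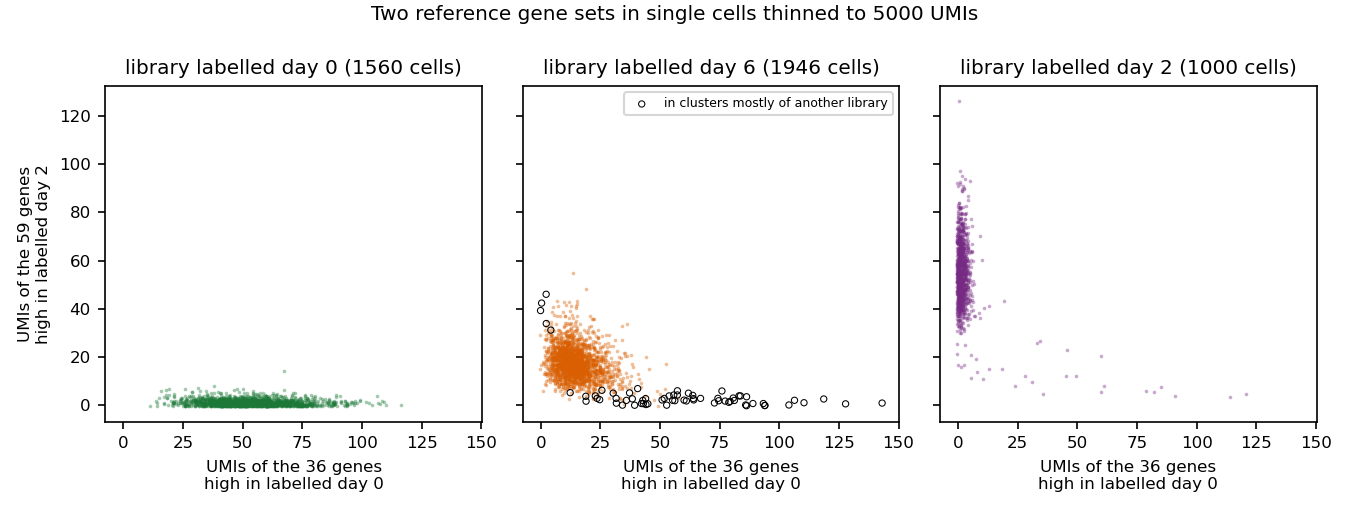
UMIs of the 36 genes high in the library labelled day 0 (x axis) against UMIs of the 59 genes high in the library labelled day 2 (y axis), in single cells thinned to 5000 UMIs, 1 panel per library and 1 point per cell, with small random shifts so that points do not hide each other. Open circles are cells labelled day 6 in clusters made mostly of another library. The cells labelled day 6 lie around medians of 14 and 17, between the other libraries with medians of 52 on x and 54 on y, and a few lie with each of these.

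Spread between cells of the library was measured as the variance divided by the mean of UMIs in the 1946 cells thinned to 5000, a ratio near 1 being what counting alone gives. Of 4374 genes with a mean of at least 0.2 UMIs, 166 (3.80%) reached 1.5, comprising 13 of 15 mitochondrially encoded genes, 31 of 81 ribosomal protein genes and 122 of the other 4278. In cells of at least 5% mitochondrial share the number was 110, and with a limit of 10% on that share it was 270. Among the remaining genes the highest was DLK1, a Notch-like membrane protein, with a ratio of 25.2. Its median was 0, its 99th percentile 40.3 and its highest cell 116 UMIs. Leaving out 67 deep cells that clustered with other libraries brought DLK1 to 3.08, and likewise ANXA2 from 7.35 to 1.17, ACTC1 from 6.49 to 1.33 and STMN2 from 2.56 to 1.34. Much of the spread of those genes thus came through few cells. ANXA2, ACTC1 and STMN2 fell below 1.5 without them, whereas DLK1 stayed above it. Metallothioneins, which bind zinc and copper, did not lose their spread in this way. MT1G was seen in 18.9% of cells with up to 27 UMIs and had a ratio of 6.602 with and 6.595 without those cells, and MT2A had 4.30 and 4.28. The histone gene HIST1H4C, whose RNA peaks in S phase, had 3.99 and 3.98.

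CUZD1 itself varied from cell to cell, with a ratio of 3.03 (2.91 without cells of other clusters), a mean of 3.96 UMIs, a median of 3, a 90th percentile of 8 and a highest cell of 28. It was seen in 86.6% of these cells. XACT, a long non-coding RNA of the X chromosome in human pluripotent cells, had a ratio of 3.59 and was seen in 79.9% of cells. NPTX1, a secreted pentraxin that promotes neural fate in human stem cells, had 2.55 (2.54 without). VIM, an intermediate filament of neural progenitors, had 2.70. Of the transcription factors, SOX2 had 1.54, FEZF1 1.47, LHX5 1.34, POU5F1 1.30, SOX21 1.18 and HESX1 1.13. LINC00486, the highest gene outside the mitochondrial and ribosomal groups, had 1.19 at a mean of 61.1 UMIs. For a given relative spread the ratio rises with the mean, so ratios of genes at different levels are not compared.

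**Figure D4:**
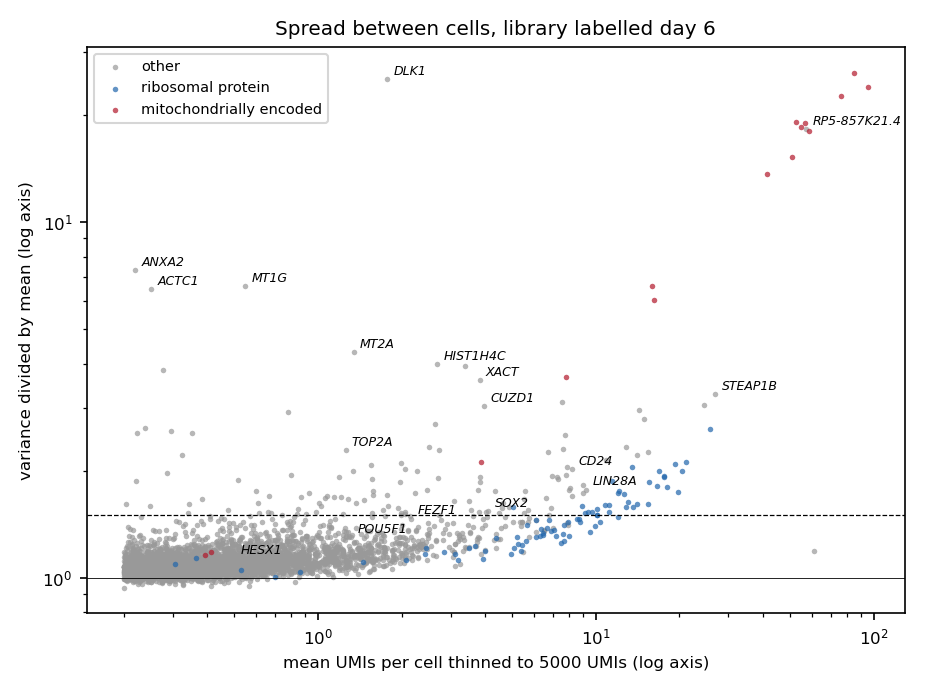
Variance divided by mean (y, log axis) against mean UMIs per cell (x, log axis) for the 4374 genes in 1946 cells of the library labelled day 6 thinned to 5000 UMIs. Mitochondrially encoded genes are red, ribosomal protein genes blue and the others grey. The dashed line marks 1.5, which 166 genes reach, and DLK1 at 25.2, MT1G at 6.602 and CUZD1 at 3.03 stand above it.

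Correlations between genes were computed over the same 1946 thinned cells on log2(UMIs + 1), for 9563751 pairs. They describe co-variation within 1 library, share depth and composition, and carry no p-value. Their median was 0.0024 and the 1st and 99th percentiles were -0.074 and 0.082. At least 0.3 was reached by 455 pairs, of which 78 joined mitochondrially encoded genes, 90 joined ribosomal protein genes, 108 and 40 held 1 gene of those groups, and 139 neither. At most -0.3 were 479 pairs, 434 of them with 1 mitochondrial gene. These counts depended on the mitochondrial share of the cells included. In the 1638 cells of at least 5% share, 147 of the 455 pairs and 1 of the 479 stayed past these values. An example is EEF1A1 with MT-CO2, at -0.53 over all cells and -0.27 in those cells. Other pairs may share reads, since 14 join a gene to a locus that spans an annotated pseudogene copy of it, as STEAP1B with EEF1A1 (0.61) and CLVS1 with NPM1 (0.54). Such copies were sought by pseudogene names only, so further pairs may share reads.

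Past these, pairs fell into a few gene groups. Metallothioneins moved together, MT1G with MT1H at 0.65 (0.45 labelled day 0, 0.52 labelled day 2, and 0.62 in cells of at least 5% mitochondrial share). These genes are close relatives in 1 gene cluster, and reads may be shared among them. A group of 9 held mitotic genes and RP13-104F24.2, a locus without a gene name, with KPNA2 and TOP2A at 0.45 (0.59 and 0.48 in the other libraries). RP13-104F24.2 with KPNA2 had 0.45 (0.65 and 0.68), and whether they share reads was not tested. Another group joined DAB1, DLGAP1 and XACT. DAB1 with XACT had 0.48 (0.10 and 0.26 in the libraries labelled day 0 and day 2). DAB1 with DLGAP1, a postsynaptic scaffold gene, had 0.44 (0.10 and 0.16), and DLGAP1 with XACT had 0.43. The mean of DAB1 was 2.502 UMIs in these cells, against 0.587 labelled day 0 and 0.451 labelled day 2. For DLGAP1 the means were 2.281 against 0.705 and 0.784 UMIs, and for XACT 3.815 against 5.430 and 1.252 UMIs. What part these counts play in the lower r of the other libraries was not tested. DAB1 with XACT had 0.34 in cells of at least 5% mitochondrial share. That group, connected at r of at least 0.3, held 42 genes, 13 mitochondrially encoded and 29 others. In cells of at least 5% share, links of XACT to mitochondrially encoded genes turned sign, from 0.41 to -0.08 with MT-RNR2 and from 0.37 to -0.13 with MT-CO3. XACT with RP5-857K21.4, a locus counted among the 29 others, went from 0.35 to -0.15. RP5-857K21.4 with EFNA5 and with TENM3 also turned sign, each from 0.31 to -0.07. Some other links of the group stayed positive in those cells. RP5-857K21.4 with MT-ATP6 went from 0.96 to 0.88, and PCDH15 with MT-ND4 from 0.48 to 0.36. PCDH15 itself had only 0.12 with XACT and 0.07 with DAB1 over all 1946 cells. Of the 29 others in the group, the 23 with a length were long, with a median of 659 kb against 43.6 kb over 4218 measured genes. The median r of the 29 was 0.18 with the mitochondrial share and 0.18 with log10 UMIs. What part shared reads, long introns, nuclear RNA or cell quality play in this group was not tested. A group of 51 genes joined translation, ribosomal protein and cytoskeletal genes, and its 20 members other than ribosomal protein genes had a median r of -0.35 with the mitochondrial share. Of the 139 pairs with neither kind of gene, 45 reached 0.3 in the library labelled day 0 and 82 in the library labelled day 2.

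**Figure D5:**
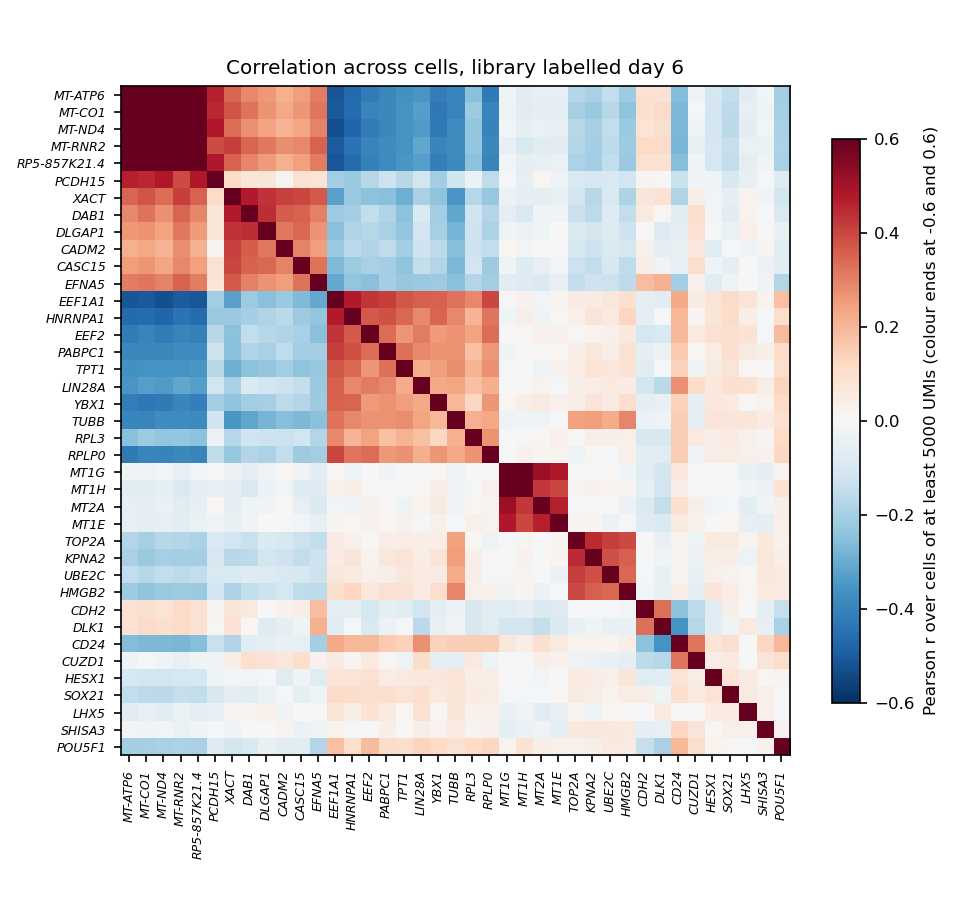
Pearson r between named genes over 1946 cells of the library labelled day 6, shown by colour from -0.6 to 0.6. Blocks of red along the diagonal mark mitochondrially encoded genes, translation genes such as EEF1A1 and HNRNPA1 (0.47), metallothioneins such as MT1G and MT1H (0.65) and mitotic genes such as KPNA2 and TOP2A (0.45), and the marker genes show little colour with each other.

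The marker genes were only weakly correlated with each other. CUZD1 with POU5F1 had 0.11, and 0.06 without the cells of other clusters, and the other marker pairs had at most 0.08. At the low counts of these genes a weak correlation is no finding. The strongest relation of CUZD1 was with CD24, at 0.32 (0.03 labelled day 0, 0.02 labelled day 2, where CUZD1 was nearly absent), and it was 0.23 without the cells of other clusters. Next came GPC4, a glypican at the cell surface, at 0.24, DPYSL3 at 0.23, PLS3, an actin-bundling protein, at 0.22, and CLDN6 at 0.21 (0.12 without the cells of other clusters). POU5F1 had its highest r with POU5F1B (0.26), a near-identical copy whose reads cannot be told apart with certainty, and then with RPL27A (0.21) and CD24 (0.20, and 0.13 without the cells of other clusters). LHX5 had 0.13 with DPYSL3, 0.12 with SHISA2 and 0.11 with FEZF1. SOX21 had 0.14 with SOX2, and HESX1 had 0.10 with SOX2.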

How the data were processed

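Single-cell RNA was measured in 3 inDrop libraries of H9 cells, 1 per labelled day. The authors deposited matrices of raw UMI counts per gene and barcode, made with STAR on hg38, per the submitters' processing notes. The annotation, strand handling and UMI collapse were not given in the sources used here. Barcodes were kept at 1000 UMIs, 500 genes and at most 25% mitochondrial UMIs, and doublets were kept. Counts were summed over kept cells and given as CPM of the library total (31113 symbols), with exact Poisson intervals, exact binomial intervals for ratios and Clopper-Pearson intervals for shares of cells, all for counting error only. Each library came from 1 sample, so no tests were made. Genes of at least 10 CPM in any library were compared. Variation and correlation used cells thinned to 5000 UMIs (seed 1), with genes of mean at least 0.2 UMIs.

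Named genes were the 30 highest, the 30 highest transcription factors, the markers, the 20 highest and 10 lowest against both libraries at 50 CPM, the most variable genes, the extreme pairs, up to 4 members per list and those of a list beyond both libraries. The members, lists and tests were chosen with earlier results of these data known. Gene lists and limits came from that knowledge and support nothing by themselves. Cells were clustered with scanpy 1.11.5 in Python 3.11.15 (2000 variable genes, 30 components, 15 neighbours, resolution 0.5) to find cells grouped with another library. Alternative scalings used edgeR 4.0.16. Alternatives changed scaling, filters, thinning depth, limits and the cells included. Calculations were tested on simulated data. Some genes that met the naming rule are not reported here.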

Additional observations from a re-analysis of the deposited data

How the results depend on the processing

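No paired analysis was possible because there was 1 library per labelled day. The counts of genes above and below both other libraries depended on the minimum level, being 1071 and 934 with at least 10 UMIs in at least 1 library and 124 and 36 with a minimum of 50 CPM, against 334 and 125. Across other scalings and choices of cells they ranged from 321 to 373 and from 111 to 163. With a mitochondrial limit of 10%, the genes at least 2 times the library labelled day 2 numbered 1405 against 887. The number of genes varying between cells was 270 with that limit, 110 in cells of at least 5% mitochondrial UMIs, 382 at 10000 UMIs and 57 for a variance of at least 2 times the mean, against 166. The pairs of r at least 0.3 numbered 2168, 155 and 1204 under the first 3 of these settings and 5457 without thinning, against 455. Pairs of r at most -0.3 numbered 1088 with the 10% limit, 3 in cells of at least 5% and 1643 without thinning, against 479. The share of cells holding both reference sets at 1000 UMIs was 50.02% with the 10% limit, 38.3% in cells of at least 5000 UMIs, 36.0% without the cells of other clusters, 35.6% and 19.2% with sets 4-fold and 20-fold apart, 89.3% at 5000 UMIs and 0.909% with the 99th percentile limit, against 30.5%. That limit for the first set was 7.82 UMIs against 2, in a library labelled day 2 with 39 cells in clusters of another library. The cause of these shifts was not tested. For 450 ratios of named genes the alternatives gave 3599 values, each ratio counted once per alternative. Of these values, 2598 stayed within the counting interval of the main ratio. None of the 1720 values that belong to called ratios changed direction. Of the 30 highest genes, 28 to 30 were shared by each alternative. Of 528 list counts, 24 moved by more than 1.5 times. At 1000 UMIs per cell, 5 of the 6 markers were seen in under 30% of the cells, which limits statements on single cells.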
